A study of Mus musculus with 6 samples.

Results

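The mitochondrial ribosomal protein genes are the nuclear genes named Mrpl or Mrps with a number, for the large and the small subunit of the ribosome inside mitochondria. They were taken from the array by that name alone, leaving out pseudogene names, which gave 77 genes of the 37074 gene names on the array and 119 probes of its 56605 non-control probes. Of these, 48 genes with 70 probes are named for the large subunit and 29 genes with 49 probes for the small subunit. Total RNA came from the left kidneys of male C57BL/6J mice, 8 weeks old and fasted for 20 h, of which 3 were wild type (WT, arrays 2, 3 and 4) and 3 lacked Selenbp1 (Selenbp1-KO, arrays 1, 2 and 3). Each mouse was hybridised to its own 1-colour array. Selenbp1 encodes a selenium-binding protein. All 6 mice shared sex, age and fasting, and genotype was the only labelled difference. How the deletion was made is not given in the labels. The study bought its C57BL/6J mice from a supplier and cites earlier work for the Selenbp1-KO line, so origin cannot be told apart from genotype. Its methods do not name the background of that line.

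The mitochondrial ribosome translates the few messenger RNAs made from mitochondrial DNA, all of which encode subunits of the respiratory chain and ATP synthase. Its ribosomal RNAs are made inside the organelle, whereas its proteins are encoded in the nucleus, made in the cytosol and imported. Some of these proteins have a bacterial counterpart and others were added during the evolution of mitochondria. The proximal tubule of the kidney is rich in mitochondria and depends on oxidative metabolism.

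The promoters of these genes show one feature that the choice by name did not use. A 300-base RefSeq window (GRCm38.p6), from 250 bases before to 50 bases after the transcription start, was found for 68 of the 77 members, of which 42 are named for the large subunit; Mrpl4, Mrpl13, Mrpl15, Mrpl19, Mrpl38, Mrpl54, Mrps28, Mrps34 and Mrps35 were not matched. The motifs searched, on both strands, are each linked in general knowledge to a factor that acts on genes for mitochondrial proteins. The letters bound by NRF1 (nuclear respiratory factor 1), which are GCGCA and GCGC with any base between them, were in 13 of the 68 windows (19.1%), against 6.60% of 17492 protein-coding genes. CCGGAAG, the letters of the ETS family to which GABPA belongs, was in 24 windows (35.3%), against 11.9% of protein-coding genes. AAGATGGC, the letters of YY1, was in 12 windows (17.6%), against 3.22%. At least 1 of the 3 was in 41 member windows (60.3%) and in 19.5% of protein-coding genes, and over all 27025 genes with a window the share was 15.2%. Neither comparison set was limited to genes expressed in these kidneys, so the members were not compared with expressed genes alone. No matches of different motifs overlapped each other.

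Stretches of 120 bases that end at the base before the transcription start are shown for members described below, chosen because they carry a motif or, for Mrps31, because it was the only member with lower values in every Selenbp1-KO kidney and has none there. Capitals mark the motif letters on either strand, and each run reads 5′ to 3′ on the strand of the gene. The NRF1 letters are in Mrpl12 (chr11:120484517-120484636, plus strand), Mrpl57 (chr14:57826119-57826238, plus strand) and Mrpl45 (chr11:97315596-97315715, plus strand).
Mrpl12: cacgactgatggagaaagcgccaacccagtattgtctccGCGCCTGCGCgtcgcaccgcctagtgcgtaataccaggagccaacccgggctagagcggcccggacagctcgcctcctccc
Mrpl57: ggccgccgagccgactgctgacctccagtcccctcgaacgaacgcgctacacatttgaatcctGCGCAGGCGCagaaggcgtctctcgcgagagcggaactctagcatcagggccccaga
Mrpl45: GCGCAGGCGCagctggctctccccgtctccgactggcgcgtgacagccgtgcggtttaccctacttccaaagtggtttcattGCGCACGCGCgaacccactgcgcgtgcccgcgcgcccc
The ETS letters are in Mrpl53 (chr6:83108988-83109107, plus strand), Mrpl3 (chr9:105053148-105053267, plus strand) and Mrps18a (chr17:46110884-46111003, plus strand), and Mrps31 (chr8:22411220-22411339, plus strand) has no match in the stretch.
Mrpl53: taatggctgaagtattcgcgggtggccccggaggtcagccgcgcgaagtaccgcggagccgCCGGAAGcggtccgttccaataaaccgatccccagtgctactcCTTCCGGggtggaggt
Mrpl3: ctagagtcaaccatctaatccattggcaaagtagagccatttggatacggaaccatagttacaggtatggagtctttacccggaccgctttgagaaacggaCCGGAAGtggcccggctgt
Mrps18a: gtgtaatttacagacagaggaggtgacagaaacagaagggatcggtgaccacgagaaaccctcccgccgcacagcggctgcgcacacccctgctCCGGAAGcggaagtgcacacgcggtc
Mrps31: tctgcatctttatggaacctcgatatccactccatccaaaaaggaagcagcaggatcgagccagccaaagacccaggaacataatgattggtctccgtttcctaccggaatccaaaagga
The genes with capitals include 3 of the highest members by difference between genotypes (Mrpl12, Mrpl57 and Mrpl53) and 2 of the lowest (Mrpl45 and Mrpl3). These are matches of letters, not measured binding sites.

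Every level below is the log2 signal of a probe relative to the 75th percentile of its own array, and every difference is Selenbp1-KO minus WT on that log2 scale. Levels of different probes are not comparable with each other. A gene is described by its brightest probe. Selenbp1 measured 7.07, 7.02 and 7.02 in WT and 4.13, 3.98 and 4.10 in Selenbp1-KO kidneys, so every array fitted its label. All 6 arrays lay on 1 slide. Of the 2 position numbers of each array, the first was 1 for WT 2 and WT 3. It was 2 for WT 4 and the Selenbp1-KO arrays. This number is read here as the side of the slide, which the labels do not name. Between 51.8% and 55.5% of non-control spots were well above background.

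The kidneys of both genotypes expressed the complete set of members. The probe of each of the 77 genes was well above background on all 6 arrays, and of the 119 probes 9 were so on no array and 3 on some arrays only. None of the 77 genes passed the limma test after Benjamini-Hochberg adjustment over the 56097 probes tested, where the lowest adjusted p was 0.279. At the limma criterion of the study's methods, an unadjusted p under 0.05, 1 member passed with the scaling used here. It was Mrpl54, which was higher in Selenbp1-KO kidneys. Of all 36778 genes tested 7.99% were called, 6.87% higher and 1.13% lower, whereas 0.00544% of them (2 genes) passed the adjusted test. Among the 18276 genes that, like the members, were well above background on all arrays, 5.48% were called, 4.42% higher and 1.07% lower. Of the members, 1.30% were called. This order depended on the processing. When limma let the variance follow the signal, 20.8% of the members and 12.2% of these genes were called. On the authors' normalized values the shares were 22.1% and 14.1%. The members were brighter than the genes well above background (median level 3.61 against 0.38 over the 18273 with a value on every array). They also varied less within a genotype (median SD 0.073 against 0.12). What these gaps add to the shares was not tested.

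Differences were small and mostly of one sign. The fitted difference was above 0 for 63 of the 77 members and below 0 for 14, with a median of 0.072, next to 0.019 over the genes well above background and 0.126 over all genes. The share above 0 was 81.8% of the members, 55.1% of the genes well above background and 68.4% of all genes. With normexp background correction the median was 0.040 over the members and 0.035 over the genes well above background, so most of the distance between them was lost. The difference as reported ranged from -0.26 for Mrpl35 to 0.30 for Mrpl54, and 75 members lay within 0.25 of 0. The 95% interval of a typical member reached 0.25 to either side of its difference. For 75 of the 77 members the whole interval lay within 0.5 of 0, that is, within 1.41-fold either way, and 76 intervals included 0.

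**Figure D1:**
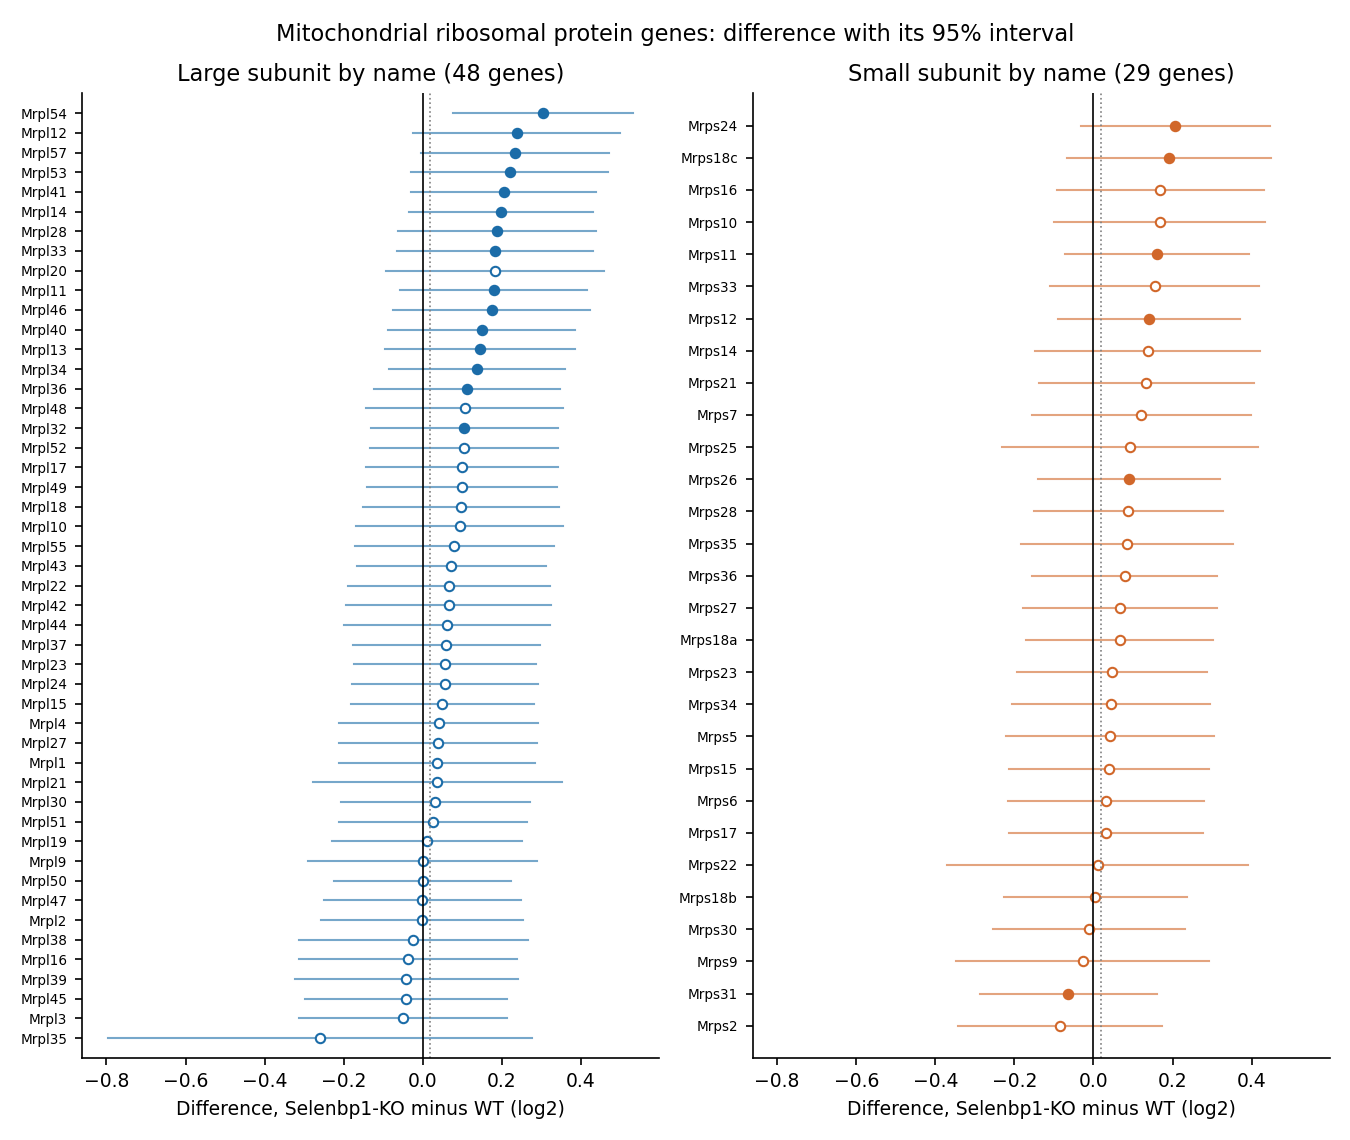
Difference in log2 signal, Selenbp1-KO minus WT, of the 48 genes named for the large subunit (left) and the 29 named for the small subunit (right), each from its brightest probe with the 95% limma interval (n = 3 arrays per genotype). Filled points are the 21 genes whose genotypes do not overlap, the solid line is 0 and the dotted line is the median of 0.019 over genes well above background. Most points lie right of 0 and 76 of 77 intervals include 0.

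The values of all 3 Selenbp1-KO kidneys lay above all 3 WT values for 20 members (25.97%), against 12.8% of the genes well above background and 10.2% of all genes. The reverse held for 1 member, Mrps31, against 6.51% and 3.87%. These shares do not take into account that the members varied less within a genotype than the genes well above background. In the remaining 56 members the genotypes overlapped. By subunit, 15 of 48 large subunit genes and 5 of 29 small subunit genes were higher without overlap.

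The mitochondrial ribosomal proteins of the large subunit surround the site of peptide bond formation and the exit tunnel. The 4 highest signed differences among them belonged to Mrpl54, Mrpl12, Mrpl57 and Mrpl53. Mrpl54 and Mrpl53 are proteins with no bacterial counterpart, Mrpl57 is a small protein also known as Mrp63, and Mrpl12 belongs to the flexible stalk that contacts translation factors.

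Mrpl54, probed at chr10:80727584-80727643 on the minus strand of mm9, measured 3.45, 3.48 and 3.55 in WT and 3.81, 3.81 and 3.77 in Selenbp1-KO kidneys. The genotypes did not overlap, and the lowest Selenbp1-KO value stood above the highest WT value by more than either genotype's SD (0.051 in WT, 0.023 in Selenbp1-KO). The difference was 0.30 (SE 0.093), or 1.23-fold, with an unadjusted limma p of 0.0172 and an adjusted p of 0.279.

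Mrpl12 measured 5.16, 5.20 and 5.27 in WT and 5.55, 5.33 and 5.46 in Selenbp1-KO kidneys (difference 0.24, 95% interval -0.024 to 0.50). The values did not overlap, with Selenbp1-KO 2 closest to WT. Mrpl57 measured 4.82, 4.87 and 4.94 in WT and 5.12, 5.06 and 5.15 in Selenbp1-KO kidneys (difference 0.23, 95% interval -0.0036 to 0.47). Mrpl53 measured 3.93, 4.03 and 4.12 in WT and 4.29, 4.26 and 4.20 in Selenbp1-KO kidneys (difference 0.22, 95% interval -0.030 to 0.47). In these members the genotypes were apart, WT 4 was the highest of the WT arrays, and the test was not passed.

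At the other end of the large subunit stood Mrpl35, Mrpl3, Mrpl45 and Mrpl39. Mrpl35 and Mrpl3 have bacterial counterparts, and Mrpl45 lies near the exit of the tunnel, close to the inner membrane. Mrpl35 measured -3.98, -3.68 and -3.34 in WT and -4.00, -4.17 and -3.61 in Selenbp1-KO kidneys. Its within-genotype SD of 0.302 was the largest of the 77 members, its difference of -0.26 had an SE of 0.22, and the genotypes overlapped. Mrpl3 measured 2.75, 2.59 and 2.70 in WT and 2.70, 2.51 and 2.68 in Selenbp1-KO kidneys, and differed by -0.049 (SE 0.11). For Mrpl45 and Mrpl39 the differences were -0.043 (SE 0.10) and -0.042 (SE 0.12), and the genotypes of all of these genes overlapped.

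The small subunit holds the decoding site, where the messenger RNA is read. Its highest signed differences were those of Mrps24, Mrps18c, Mrps16 and Mrps10, all counterparts of bacterial proteins. Mrps24 measured 3.12, 3.25 and 3.18 in WT and 3.40, 3.44 and 3.33 in Selenbp1-KO kidneys (difference 0.21, 95% interval -0.032 to 0.45). Mrps18c measured 3.44, 3.46 and 3.63 in WT and 3.69, 3.66 and 3.77 in Selenbp1-KO kidneys (difference 0.19, 95% interval -0.066 to 0.45). Neither overlapped between genotypes, although in Mrps18c WT 4 lay just under Selenbp1-KO 2. Mrps16 (difference 0.17, SE 0.11) and Mrps10 (difference 0.17, SE 0.11) overlapped, since WT 4 and WT 3 respectively stood above Selenbp1-KO 2. The other small subunit genes that were higher without overlap were Mrps11, Mrps12 and Mrps26, named after their values were seen, with differences of 0.16, 0.14 and 0.090.

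The lowest signed differences in the small subunit were those of Mrps2, Mrps31, Mrps9 and Mrps30. Mrps31, a protein without a bacterial counterpart, measured 2.68, 2.71 and 2.67 in WT and 2.61, 2.59 and 2.67 in Selenbp1-KO kidneys. Its genotypes were apart by a gap smaller than either SD (0.018 in WT, 0.041 in Selenbp1-KO), and the difference was -0.063 (SE 0.092). Mrps2 measured 2.37, 2.26 and 2.39 in WT and 2.22, 2.19 and 2.37 in Selenbp1-KO kidneys, and differed by -0.084 (SE 0.11). Mrps9 differed by -0.027 (SE 0.13). Mrps30 differed by -0.011 (SE 0.10), with values of 2.69, 2.68 and 2.58 in WT and 2.68, 2.56 and 2.69 in Selenbp1-KO kidneys. In Mrps2, Mrps9 and Mrps30 the genotypes overlapped.

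**Figure D2:**
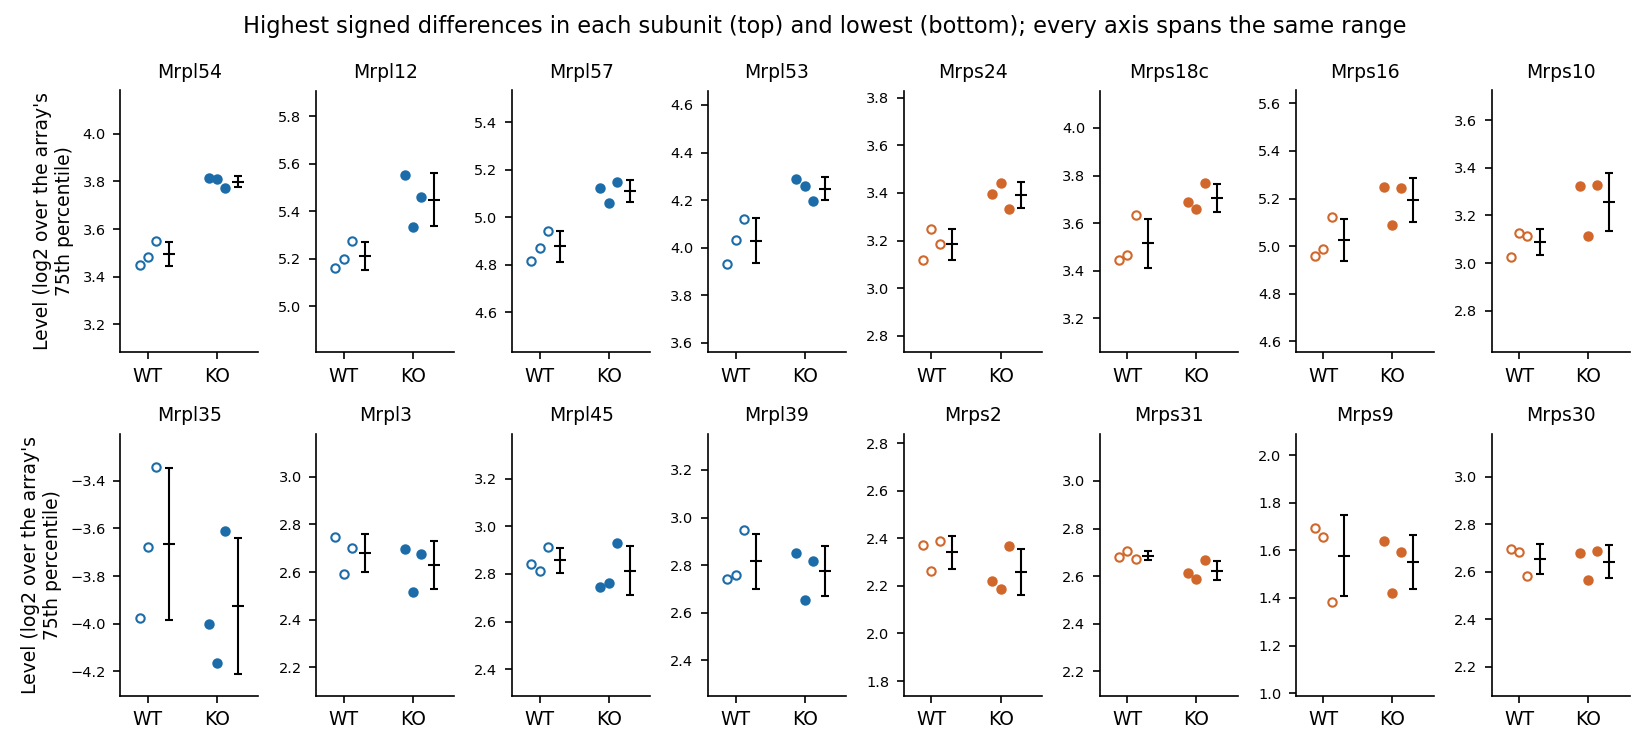
Level of 16 members on each array, as log2 signal over the array's 75th percentile, with WT as open points and Selenbp1-KO (KO) as filled points (n = 3 each), blue for large and orange for small subunit names, and the mean with its SD beside them. The top row holds the highest signed differences in each subunit and the bottom row the lowest; all axes span the same range. Mrpl54 shows the widest gap between genotypes and Mrpl35 the widest spread within them.

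The subunits had similar median shifts. The median difference was 0.069 over the large subunit genes and 0.080 over the small subunit genes, a large minus small difference of -0.010. On single arrays, the large minus small difference of median deviations had an SD of 0.0105 between arrays of a genotype. That SD is not the error of the -0.010, which was not tested. Above 0 were 38 of 48 large subunit genes and 25 of 29 small subunit genes. Mrps30 and Mrps18a carry small subunit names but their proteins sit in the large subunit. Mrps18a measured 3.38, 3.51 and 3.46 in WT and 3.50, 3.48 and 3.57 in Selenbp1-KO kidneys (difference 0.067, SE 0.097). With both moved to the large subunit, the medians were 0.066 over 50 genes and 0.085 over 27 genes. The large minus small difference was then -0.019, which was not tested either. Mrps36 also has a small subunit name, although its protein is known as a part of the oxoglutarate dehydrogenase complex, and its difference was 0.080.

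Origin of the proteins was set beside subunit. The 46 members with a bacterial counterpart had a median difference of 0.084 and the 31 without one had 0.067. Within the large subunit the order was the other way round, 0.061 over 30 genes with and 0.086 over 18 genes without a counterpart, whereas in the small subunit it was 0.13 over 16 genes and 0.067 over 13 genes. These medians are descriptions, with no test.

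By promoter motif, a larger share of the members with the ETS or YY1 letters and a smaller share of those with the NRF1 letters had a difference above 0 than of the members without them. Of the 24 with the ETS letters 23 had a difference above 0 (median 0.093), and of the 44 without 32 did (median 0.063). The NRF1 letters went with 9 of 13 above 0 (median 0.090) and their lack with 46 of 55 (median 0.072). For the YY1 letters the counts were 11 of 12 (median 0.10) and 44 of 56 (median 0.069). Promoters and differences are described side by side here, with no test.

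The shift of the members was uneven among the mice. The median deviation of the 77 members from their own means was -0.093, -0.052 and 0.011 on WT 2, WT 3 and WT 4, and 0.076, -0.028 and 0.077 on Selenbp1-KO 1, 2 and 3. WT 4 thus lay above Selenbp1-KO 2, and the genotypes overlapped in this summary. Selenbp1-KO 2 gave the lowest Selenbp1-KO value in 64 of 77 members (83.1%), against 41.1% of the genes well above background. WT 2 gave the lowest of all 6 values in 38 members (49.4%), against 19.7%, and WT 4 the highest WT value in 50 (64.9%), against 48.1%. The medians of the large and the small subunit genes had the same sign on 5 arrays, such as Selenbp1-KO 2 (-0.031 and -0.023) and WT 2 (-0.099 and -0.087), and opposite signs on WT 4 (0.011 and -0.0034).

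**Figure D3:**
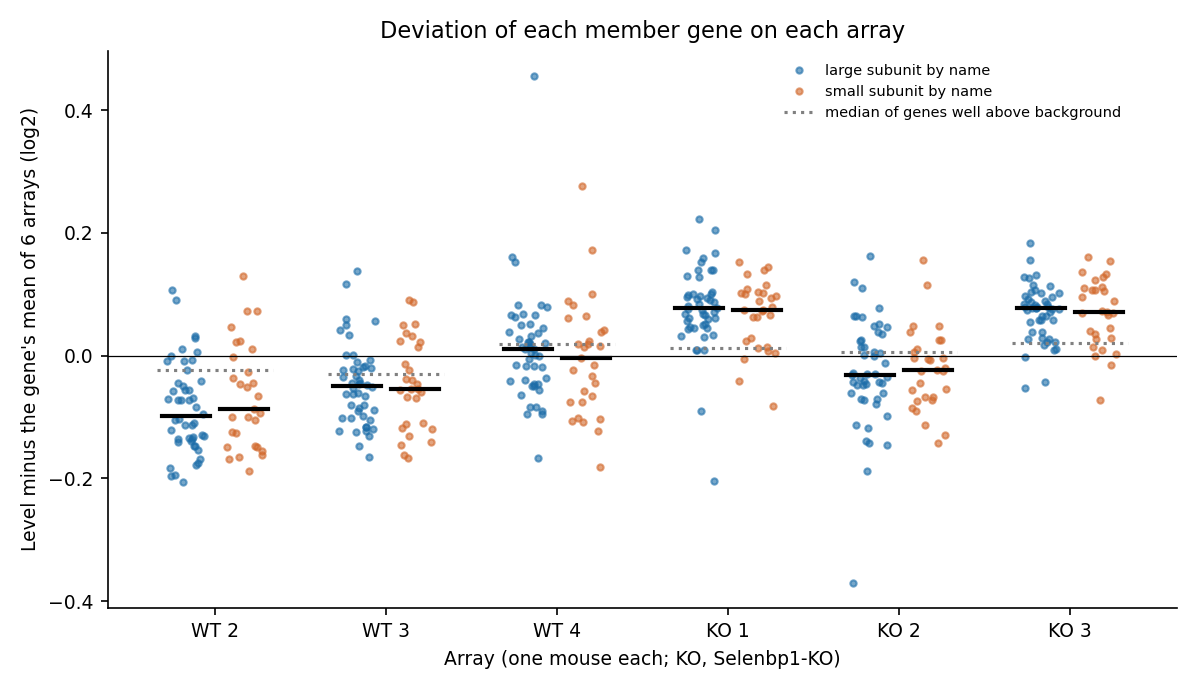
Deviation of each member gene from its mean over the 6 arrays (log2), by array, for large subunit names (blue) and small subunit names (orange), with black bars at the medians and dotted lines at the median of the genes well above background. Selenbp1-KO 1 and 3 sit near 0.077 and WT 2 near -0.093, whereas WT 4 and Selenbp1-KO 2 lie between them and cross.

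Leaving out single arrays changed the size of the shift but not its sign. Without Selenbp1-KO 2 the median over members was 0.106 and 72 of 77 differences were above 0. Without Selenbp1-KO 1 they were 0.048 and 60, and without WT 4 they were 0.101 and 65, with 6 members called (7.79%, against 8.79% of the genes well above background), all higher in Selenbp1-KO kidneys. In a fit blocked on the side of the slide, which leaves WT 4 as the only WT array beside the Selenbp1-KO arrays, the median was 0.041, 54 of 77 differences were above 0 and no member was called, against 5% of the genes well above background.

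How many members passed the criterion depended on how the variance and the scale were set. As reported, limma draws the variance of every probe, dim or bright, towards 1 common value, and the typical SE of a member was 0.10. When limma let the variance follow the signal (trend and robust options), 16 members (20.8%) were called, against 12.2% of the genes well above background. In the methods' t-test 17 members (22.1%) were called, against 11.8%. Quantile normalization gave 14 (18.2%, against 14.2%) and the authors' normalized values gave 17 (22.1%, against 14.1%). Where each probe had to be well above background throughout a genotype, 8 members (10.4%) were called, against 10.1%. Every member called in any of the 21 alternatives was higher in Selenbp1-KO kidneys, and none passed the adjusted test in any of them, where the lowest adjusted p of a member was 0.0617, without WT 4. Mrpl54 was called in 16 of the 21 alternatives, Mrpl57 in 7 and Mrpl53 in 6, whereas 56 members were called in none. A positive difference was kept in all 21 alternatives by 39 members, and a negative one by 3.

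**Figure D4:**
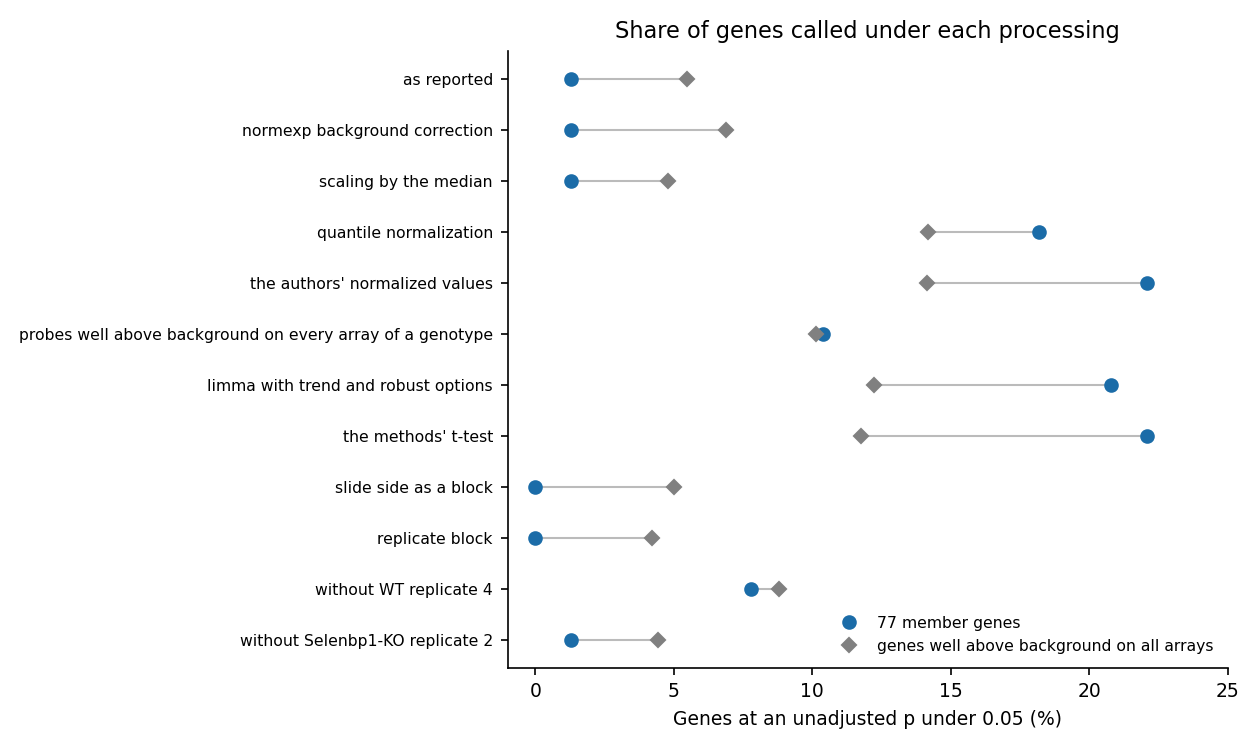
Share of genes at an unadjusted p under 0.05, for the 77 members (blue circles) and for the genes well above background on all arrays (grey diamonds), as reported and under 11 of the alternatives. The members lie below the other genes as reported (1.30% against 5.48%) and above them in the methods' t-test (22.1% against 11.8%).

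Different probes of a member mostly gave the same sign. Of the 30 members with several probes, all probes had the same sign in 21 and differed in sign in 9, and no second probe was called. Over all 119 probes, 93 differences were above 0, with a median of 0.080. The 42 probes that were not the brightest of their gene had a median of 0.088, of which 30 were above 0. The 12 probes that were not well above background on every array had a median of 0.28. Dim probes were higher in Selenbp1-KO kidneys over the whole array too, where the median was 0.11 over all probes and 0.019 over the genes well above background.

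The members are spread over 17 chromosomes, with at most 10 genes on one, chromosome 11. Selenbp1 lies on chromosome 3, as do 5 members. The closest were Mrpl9, with its probe 0.496 Mb from that of Selenbp1, and Mrps21, 0.918 Mb away. Mrpl9 differed by -0.00022 (SE 0.12) and Mrps21 by 0.13 (SE 0.11), both with overlapping genotypes in the brightest probe. Another probe of Mrps21 was higher without overlap (difference 0.15, SE 0.10, not called), and its remaining probe overlapped (difference 0.13, SE 0.12).

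Other genes of mitochondrial translation were read beside the members, and none of the 78 genes in these 6 lists was called as reported. In the methods' t-test 5 of them (6.41%, against 11.8% of the genes well above background) were called (Chchd1, Gadd45gip1 and Malsu1 higher, Ptcd3 and Elac2 lower), and with limma's trend and robust options 11 were (14.1%, against 12.2%), 8 higher and 3 lower. Of 6 mitochondrial ribosomal proteins with other names, 4 were above and 2 below 0, with a median of 0.14. Chchd1, of the small subunit, measured 4.65, 4.55 and 4.77 in WT and 4.93, 4.80 and 4.91 in Selenbp1-KO kidneys (difference 0.22, SE 0.11), and Gadd45gip1, of the large subunit, differed by 0.18 (SE 0.096). Both were higher without overlap. Ptcd3, a small subunit protein that also binds RNA, measured 2.84, 2.83 and 2.84 in WT and 2.73, 2.70 and 2.75 in Selenbp1-KO kidneys, lower without overlap (difference -0.11, SE 0.090). Dap3, a small subunit GTP-binding protein, differed by -0.025 (SE 0.096).

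The genes that build or serve the ribosome were centred near 0. Of 21 genes of ribosome assembly and ribosomal RNA modification, 11 were above and 10 below 0 (median 0.0091). Of 13 translation factors, 5 were above and 8 below (median -0.018), with the elongation factor Tufm at -0.018 (SE 0.099). Of 17 mitochondrial aminoacyl-tRNA synthetases, which charge the organelle's tRNAs, 6 were above and 11 below (median -0.014).

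Genes of mitochondrial transcription and of nuclear control lay slightly below 0. Among 12 genes of mitochondrial transcription and RNA handling, 4 were above and 8 below (median -0.055), with Tfam, which packages mitochondrial DNA and starts its transcription, at -0.043 (SE 0.11). Among 9 nuclear regulators, 2 were above and 7 below (median -0.071). Ppargc1a, a coactivator of mitochondrial genes, measured 2.80, 2.84 and 3.06 in WT and 2.42, 2.61 and 2.93 in Selenbp1-KO kidneys (difference -0.25, SE 0.16), with overlap. The genes of the factors whose letters were searched differed by -0.060 (Nrf1, SE 0.12), -0.071 (Gabpa, SE 0.10) and 0.028 (Yy1, SE 0.11). None of these named regulators passed the test.

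**Figure D5:**
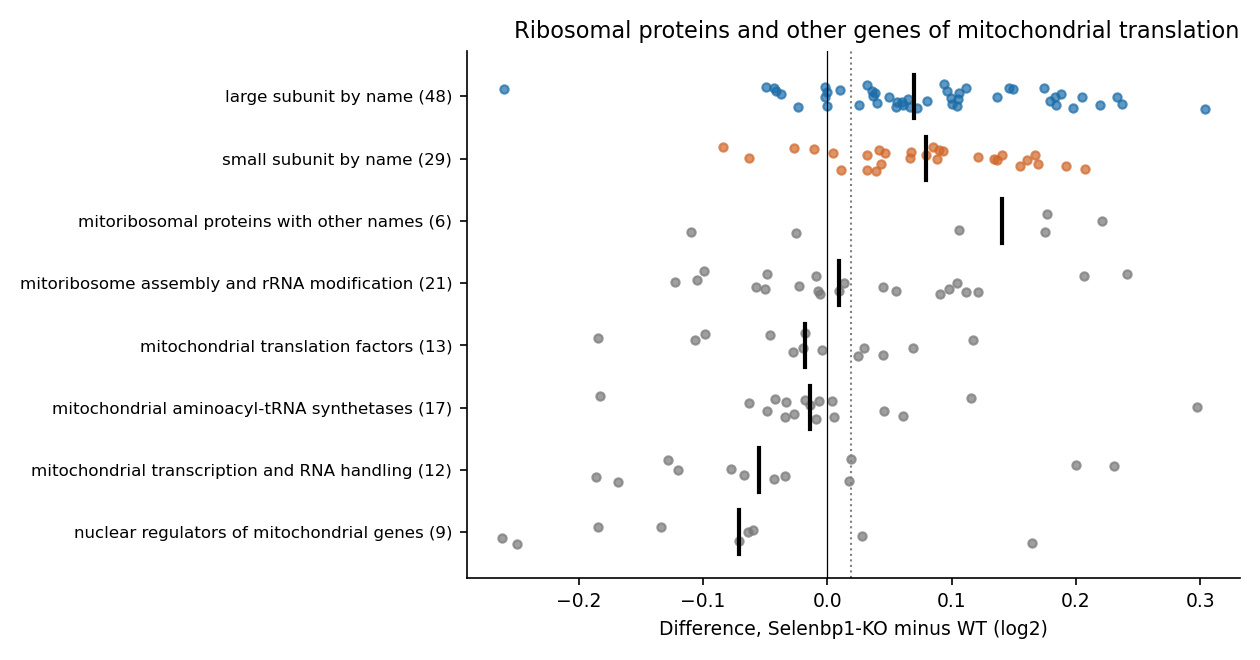
Difference in log2 signal, Selenbp1-KO minus WT, of each gene in 8 lists of mitochondrial translation and its control, with the number of genes in brackets, black bars at the list medians, a solid line at 0 and a dotted line at 0.019, the median over genes well above background. The ribosomal protein lists are centred between 0.069 and 0.14 and the other lists between -0.071 and 0.0091.

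Markers of cells in the samples were set beside the members, because in whole kidney RNA fewer cells of a type and less RNA per cell cannot be told apart. The tissue label held: all 6 proximal tubule markers were well above background on all arrays, with 2 above and 4 below 0 (median -0.013), and their summed level was 461 to 536 in WT and 483 to 510 in Selenbp1-KO kidneys, in units of the array's 75th percentile. Such sums follow the brightest probes of a list and serve only to set the arrays beside each other. The 6 markers of the distal nephron and collecting duct had a median of 0.0032 (261.8 to 278.0 in WT, 268.6 to 295.4 in Selenbp1-KO) and the 5 of the glomerulus had -0.014 (11.04 to 12.44 in WT, 11.2 to 12.7 in Selenbp1-KO). Above 0 were 3 distal markers, with 3 below, and 2 glomerulus markers, with 3 below. Atp6v1b1 (distal, difference 0.40, SE 0.22) was higher without overlap but not called. Synpo (glomerulus, difference 0.29, SE 0.11) was higher without overlap and called.

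Markers of several other cell types were higher in Selenbp1-KO kidneys at the unadjusted criterion, none with an adjusted limma p below 0.279. The lists were chosen with earlier results of these data known, so their counts are descriptions. Of all genes 6.87% were called higher, and of the genes well above background 4.42%. All 6 macrophage markers were above 0, of which 4 were called (median 0.44, summed level 10.704 to 12.253 in WT and 12.9 to 14.2 in Selenbp1-KO kidneys). All 5 fibroblast markers were above 0, of which 4 were called (median 0.73, 18.4 to 24.9 and 30.9 to 40.3). All 4 red blood cell markers used were above 0, of which 3 were called (median 0.71, 257.0 to 343.9 and 362.8 to 537.8).

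Fat and adrenal markers were higher on average, and their genotypes overlapped except for Cox7a1. The 5 white fat markers were above 0, none called (median 1.05, 10.6 to 40.9 in WT and 19.4 to 104.3 in Selenbp1-KO kidneys). Of the 4 brown fat markers, a cell type rich in mitochondria, all were above 0 and 1, Cox7a1, was called (median 0.33, 12.25 to 16.38 and 12.03 to 29.16), with Elovl3 not well above background on any array. The 5 adrenal cortex markers were above 0, none called (median 0.38, 0.371 to 0.513 and 0.433 to 0.525), but Cyp11a1, Cyp11b1 and Cyp11b2 were not well above background on any array. The median deviation of the white fat markers was -0.37, 0.13 and -1.54 on WT 2, 3 and 4 and 0.73, 1.77 and -0.67 on Selenbp1-KO 1, 2 and 3. That of the brown fat markers was 0.039, 0.059 and -0.51 on the WT and 0.68, 0.88 and -1.11 on the Selenbp1-KO arrays. Both were thus highest on Selenbp1-KO 2, where the members were lowest among the Selenbp1-KO arrays. The fat markers were lowest of their genotype on WT 4, where the members were highest of theirs (0.011). They were also lowest on Selenbp1-KO 3, where the members were high (0.077). But the fat markers were high on Selenbp1-KO 1, where the members were nearly level with Selenbp1-KO 3 (0.076). WT 3 lay above WT 2 in fat markers and members. The part of these cells in the members' difference was not tested.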

How the data were processed

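RNA of 6 kidneys (3 WT, 3 Selenbp1-KO) was measured on 1-colour Agilent arrays labelled with Cy3. The deposited scanner files hold signal intensity per spot, background-subtracted by Agilent Feature Extraction (version 9.5.1.1 in the submitters' processing notes, 10.7.1.1 in the file headers), with probe positions on mm9. The authors also deposited a table of normalized values on a linear scale, with the same distribution (median 24.4) in all 6 columns, that is, quantile normalized. In every column it followed the scanner intensity in rank order, and its log2 values served as an alternative. From the intensity, log2 signal minus the log2 75th percentile of each array was computed over non-control spots, outlier spots were left out and spots of a probe were averaged. The deposited files also give a p-value per spot for signal against background, computed by the scanner software, and flags for spots well above background. Probes with such a p-value under 0.05 on at least 1 array were kept (56097). Genotypes were compared with limma 3.58.1 (R 4.3.3; lmFit and eBayes, two-sided, Benjamini-Hochberg adjustment), which was tested on simulated data. A gene was read from its brightest probe. Members of the lists and the lists themselves were chosen with earlier results of these data known. Genes were named by rule: those at an unadjusted p under 0.05, the 4 highest and 4 lowest differences per subunit, and fixed genes (Dap3, Ptcd3, Tufm, Tfam, Nrf1, Gabpa, Yy1, Ppargc1a, Mrps30, Mrps18a and Selenbp1). The array's own names match RefSeq for 99 of the 119 member probes, and 20 have no RefSeq name. A further red blood cell marker is not reported here. Position of a probe in an exon or outside the coding part was not analysed here. The number of arrays limits the precision, and an exact permutation test of 3 against 3 cannot go below p = 0.1. The alternatives were normexp background correction, quantile and median scaling, the authors' values, other filters, limma with trend and robust options, the methods' t-test, blocks for slide side and replicate number, the mean of all probes, RefSeq names, Mrps30 and Mrps18a moved to the large subunit, and each array left out.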

Additional observations from a re-analysis of the deposited data

How the results depend on the processing

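The median differences of both subunits kept their sign in all 21 alternatives and moved by less than the SD between arrays (0.0589 for the large and 0.0494 for the small subunit). For the large subunit, where 1 gene was called as reported, 10 were called with quantile normalization, 12 with the authors' values, 7 when each probe had to be well above background throughout a genotype, 11 with limma's trend and robust options, 13 in the methods' t-test (0 after Benjamini-Hochberg adjustment), and 2 when detection counted only for signals above the background (tried after the data were seen). For the small subunit, with 0 called, these counts were 4, 5, 1, 5 and 4, and 0 for the last. Over the genes well above background, the shares called were 5.48% as reported and 14.2%, 14.1%, 10.1%, 12.2%, 11.8% and 6.05% in the same order. A block for the side of the slide left 0 called in the large subunit. With the replicate block 0 were called there too, with medians of 0.076 (large) and 0.082 (small). The 2 numbers shared between genotypes belong to different mice (correlation of deviations 0.16 and 0.21). Whether arrays of the same number share more than the number was not tested. Leaving out each array gave 0 to 5 calls in the large and 0 to 1 in the small subunit, the highest without WT 4. The share over the genes well above background ranged from 2.50% without WT 2 to 8.79% without WT 4. The large minus small difference ranged from -0.016 to 0.023. That difference was 0.0048 with quantile normalization and 0.0062 when blocked on the side. The cause was not tested. Median scaling lowered the median of all genes from 0.126 to 0.109, quantile normalization to 0.0037 and the authors' values to 0.0052, and the member medians then were 0.056, 0.034 and 0.042. With 3 arrays per genotype, a typical member's interval reached 0.25 to either side.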
